A study of Mus musculus with 18 samples.

Results

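Scavenger receptors are cell surface and endosomal proteins with which macrophages take up modified lipoproteins, dying cells, microbes and free haemoglobin. The 10 genes described here, out of 21938 protein-coding genes, are Msr1, Marco, Cd36, Cd68, Cd163, Stab1, Scarb1, Scarb2, Mertk and Cxcl16. They were chosen by name. For each gene, the locus was its body joined with the 50000 bp on either side of its most upstream annotated start site. The 10 loci held 159 of 82391 reference peaks, 167 of 84660 summits and 111 of 59617 extended regions, and 0 pairs of loci overlapped.

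Accessible DNA had been mapped by ATAC-seq, which relies on the Tn5 transposase cutting and tagging exposed chromatin, in wild type mouse bone marrow-derived macrophages (BMDMs). Per the study's methods, the marrow came from male C57/BL6 mice aged 6 to 8 weeks and was differentiated in culture. All cells, controls included, were given DMSO for 1 h. They were afterwards left untreated, stimulated with LPS (a bacterial ligand of TLR4) at 10 ng/mL, or stimulated with the cytokine IL-4 at 10 ng/mL, with stimulation for 30 min, 1 h, 2 h or 4 h. This gave 18 libraries in 9 groups of 2 (untreated, 4 LPS groups and 4 IL-4 groups). The 3 deposited lists were pooled over these libraries and held 0 columns with a value per library, so the effect of LPS, IL-4 and time, the spread between replicates and the depth of each library are not analysed here. No statistical test was made, and the values of the 10 genes are a description, set beside those over all protein-coding genes or all summits where these were computed.

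Class A receptors such as Msr1 and Marco bind modified lipoproteins and bacteria. Cd36, Scarb1 and Scarb2 form class B: Cd36 takes up oxidised lipoproteins and fatty acids, Scarb1 is the receptor for high density lipoprotein, and Scarb2 is a lysosomal membrane protein that delivers glucocerebrosidase. Cd68 is a glycoprotein of endosomes and lysosomes used as a macrophage marker, Stab1 clears altered proteins and cell debris, and Cd163 clears complexes of haptoglobin and haemoglobin. Cxcl16 is a chemokine anchored in the membrane that also binds oxidised lipoproteins, and Mertk is a receptor tyrosine kinase of the TAM family with which macrophages engulf apoptotic cells. Open chromatin at a start site or an enhancer permits the binding of transcription factors, and it is not by itself a measure of transcription.

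The start sites of these genes differed in sequence, and 4 of them are shown because they cover this range, from no CpG dinucleotide to many. Each runs from 250 bases before the start to 50 after it, in the direction of transcription (RefSeq, GRCm38.p6, which shares its coordinates with mm10), with CpG dinucleotides in capitals. RefSeq promoter sequences were at hand for 7 of the 10 genes.
Marco, chr1:120504975-120505274, minus strand: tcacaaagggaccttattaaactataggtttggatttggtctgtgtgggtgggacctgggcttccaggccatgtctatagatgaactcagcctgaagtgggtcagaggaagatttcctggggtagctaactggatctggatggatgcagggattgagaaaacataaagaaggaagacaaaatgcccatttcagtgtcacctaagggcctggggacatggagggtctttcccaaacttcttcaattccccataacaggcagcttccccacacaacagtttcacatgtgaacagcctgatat
Cd163, chr6:124304401-124304700, plus strand: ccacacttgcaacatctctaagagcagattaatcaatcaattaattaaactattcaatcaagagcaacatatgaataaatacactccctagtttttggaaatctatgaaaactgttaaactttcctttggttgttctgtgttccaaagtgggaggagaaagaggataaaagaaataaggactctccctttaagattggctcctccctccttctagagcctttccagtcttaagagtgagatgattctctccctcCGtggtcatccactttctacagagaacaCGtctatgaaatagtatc
Cd68, chr11:69666121-69666420, minus strand: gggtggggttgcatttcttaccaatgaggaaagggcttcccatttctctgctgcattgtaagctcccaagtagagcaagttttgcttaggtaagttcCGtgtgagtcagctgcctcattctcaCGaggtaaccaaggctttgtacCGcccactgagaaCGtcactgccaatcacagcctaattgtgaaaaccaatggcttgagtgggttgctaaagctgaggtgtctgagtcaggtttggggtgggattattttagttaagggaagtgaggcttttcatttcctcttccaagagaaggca
Scarb2, chr5:92505608-92505907, minus strand: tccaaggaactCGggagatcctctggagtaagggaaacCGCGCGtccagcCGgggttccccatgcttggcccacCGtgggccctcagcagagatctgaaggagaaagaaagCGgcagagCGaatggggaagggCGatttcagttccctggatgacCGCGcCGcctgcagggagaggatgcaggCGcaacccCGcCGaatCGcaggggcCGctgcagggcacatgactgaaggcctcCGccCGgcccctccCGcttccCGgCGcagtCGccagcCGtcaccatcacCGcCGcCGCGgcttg
The sequence of Marco held 0 CpG dinucleotides, that of Cd163 2, that of Cd68 4 and that of Scarb2 28. A reference peak overlapped the start sites of Cd68 and Scarb2, whereas none lay within 1000 bp of those of Marco and Cd163 shown here.

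Away from start sites, 3 summits are shown because each was the best scored summit of its locus over 1000 bp from every annotated start and held at least 2 different motifs. The score is the value that the authors' peak caller gave to each summit. Its scale is not stated in the sources used here, so it serves only to order summits. Each sequence covers 100 bases on both sides of the summit on the strand of the gene, with the matched motifs, on either strand, in capitals.
Cd36, chr5:17879981-17880181, minus strand: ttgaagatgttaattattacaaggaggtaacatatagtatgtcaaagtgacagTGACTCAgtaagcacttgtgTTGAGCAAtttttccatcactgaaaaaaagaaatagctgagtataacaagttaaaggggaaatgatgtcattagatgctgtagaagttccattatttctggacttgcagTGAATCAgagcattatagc
Cd163, chr6:124273326-124273526, plus strand: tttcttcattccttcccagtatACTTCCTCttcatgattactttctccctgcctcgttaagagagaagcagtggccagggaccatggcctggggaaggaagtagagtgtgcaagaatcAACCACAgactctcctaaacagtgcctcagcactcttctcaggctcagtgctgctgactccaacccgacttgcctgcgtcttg
Cxcl16, chr11:70467986-70468186, minus strand: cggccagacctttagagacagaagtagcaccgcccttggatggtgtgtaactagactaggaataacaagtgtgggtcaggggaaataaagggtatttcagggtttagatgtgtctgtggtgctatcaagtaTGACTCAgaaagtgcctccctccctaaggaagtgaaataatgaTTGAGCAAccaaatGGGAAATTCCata
The Cd36 summit, in an intron, held 2 AP-1 motifs with 1 C/EBP motif, so that 3 matches stood within 201 bases. The Cd163 summit, outside genes, held a PU.1/ETS and a RUNX motif, and the Cxcl16 summit, also outside genes, held AP-1, C/EBP and NF-kB motifs.

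The loci were compared for the number of peaks they held. Cxcl16 had 27 reference peaks, Stab1 22, Cd68 20, Scarb1 20, Msr1 18, Scarb2 15, Mertk 14, Cd36 12, Cd163 8 and Marco 3. Since Cd36 and Mertk are long genes, peaks were also counted in the 50000 bp on either side of that start alone, a window of the same length for every gene. There the 10 genes had a median of 16 peaks, against a median of 6 with quartiles of 1 and 11 over all protein-coding genes. Cxcl16, with 27 peaks, had more than 98.6% of protein-coding genes, and Stab1, with 22, more than 95.9%. Marco lay at the other end, with 3 peaks and more than 32.6% of the genes. Cd163, with 8, had more than 59.9%. Per 100 kb of locus, the 10 genes had a median of 14.6 peaks and protein-coding genes a median of 5.34.

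**Figure D1:**
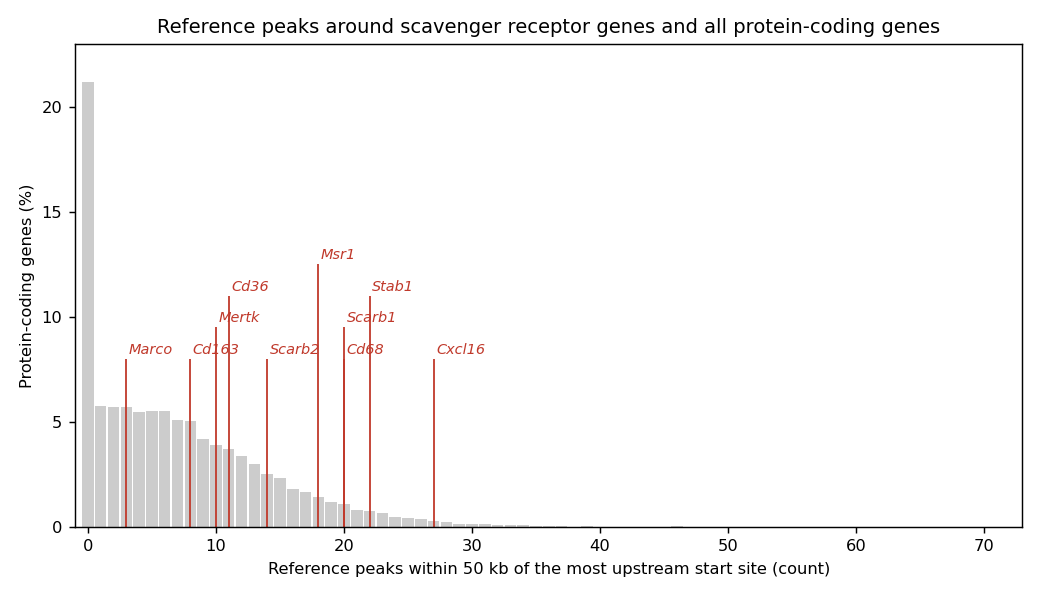
The horizontal axis gives the number of reference peaks at most 50 kb away from the most upstream start site and the vertical axis the percentage of protein-coding genes with that number (grey bars, 21938 genes). Red lines mark the scavenger receptor genes at their counts, with heights chosen only to separate the names. Marco (3 peaks) lies below the median of 6 of all genes and the other 9 genes lie above it, up to Cxcl16 (27 peaks).

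In some loci, many of the peaks lay at neighbouring genes. Of the 167 summits, 20 (12.0%) lay within 1000 bp of a start site of the receptor gene itself, 2 of them also near a start of another gene. A further 38 (22.8%) lay within 1000 bp of a start site of other genes alone, 45 (26.9%) in introns of the receptor gene, 3 (1.8%) in its exons, 13 (7.78%) elsewhere inside another gene and 48 (28.7%) outside genes. The share over 1000 bp from every start of any gene was 65.3% (109 summits), against 70.7% of all summits. The locus of Cd68 held the start sites of 10 other protein-coding genes, among them Eif4a1, Senp3 and Fxr2, and 16 of its 21 summits lay at starts of other genes of any type, among them the microRNA gene Mir1934. In the locus of Stab1, 12 of 22 summits lay at starts of other genes, Nisch among them. Marco, Msr1, Cd36 and Cd163 had no other protein-coding gene starting within their loci. Cd163 nevertheless had 1 summit at a start of Gm6308.

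**Figure D2:**
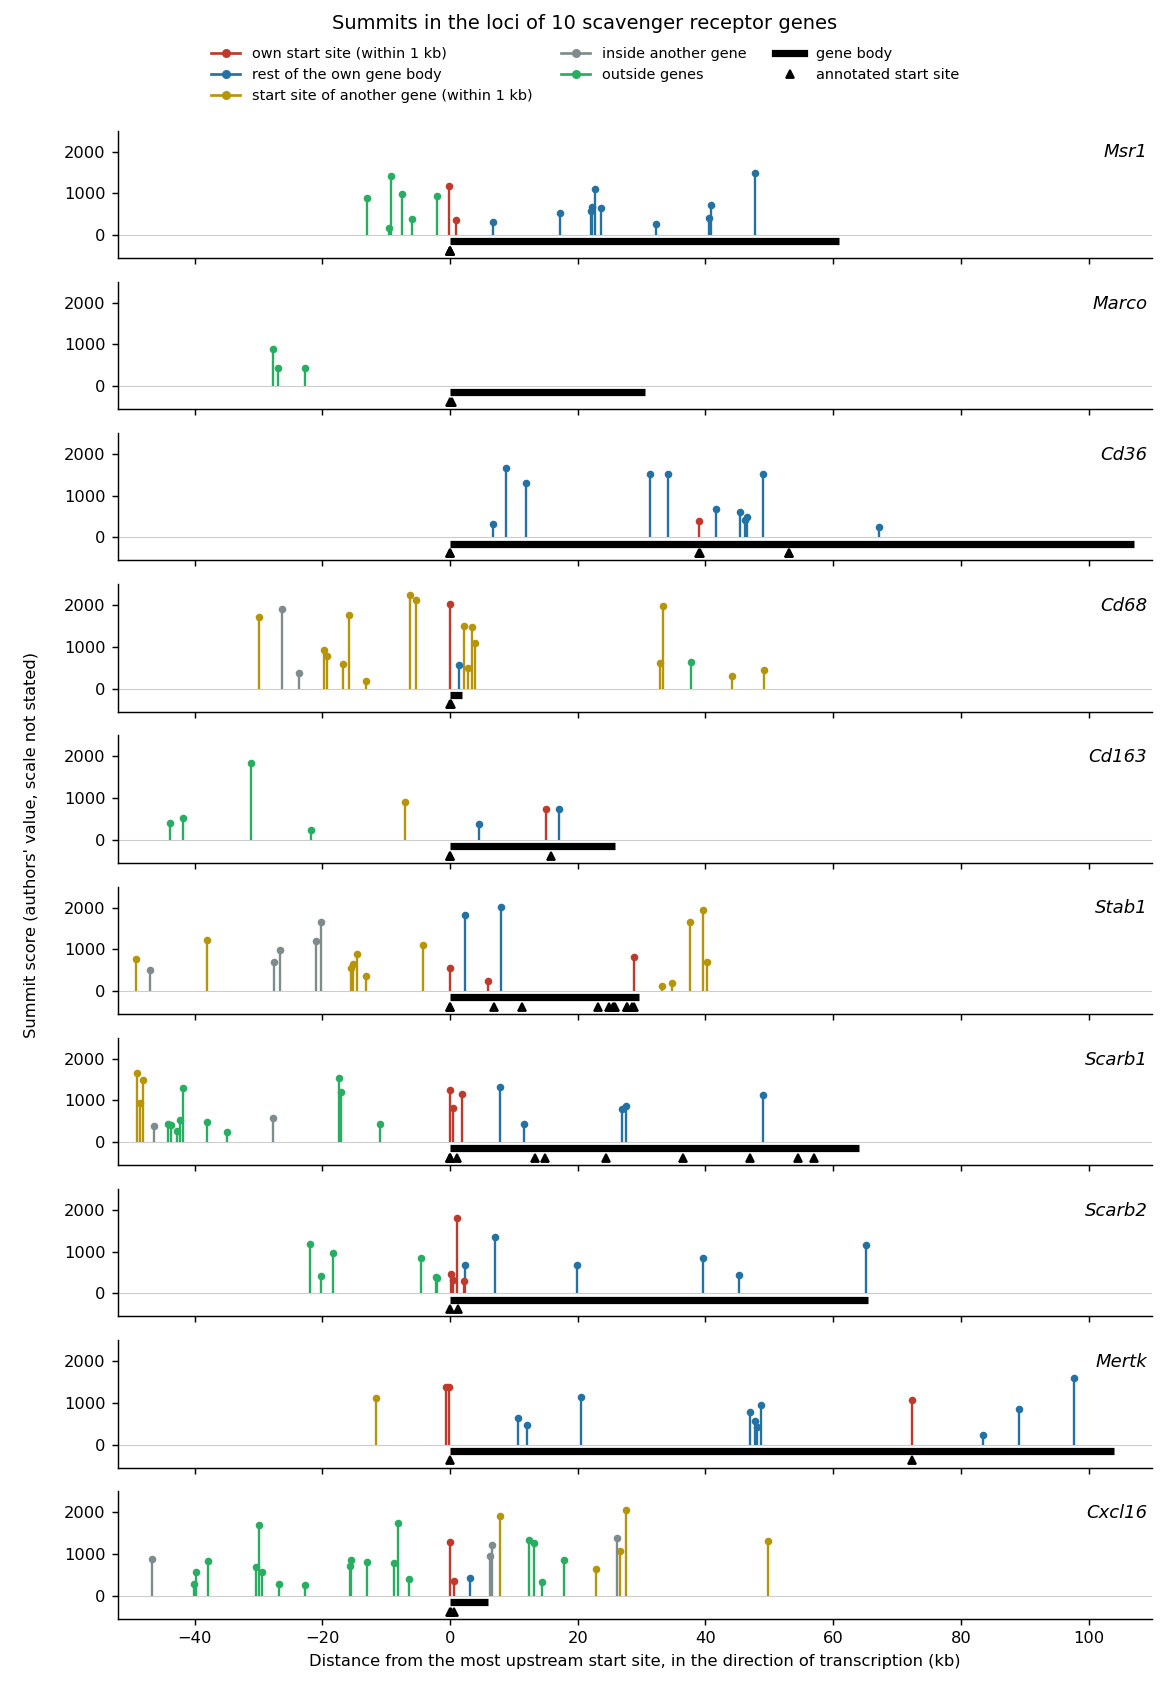
Each panel shows the locus of 1 gene, with the distance from its most upstream start site in kb on the horizontal axis and the summit score on the vertical axis. Vertical lines with dots are single summits coloured by where they lie, black bars are gene bodies and triangles are annotated start sites. Summits of Cd36 lie inside its gene body, those of Marco lie upstream of its own, and most summits around Cd68 lie within 1 kb of start sites of other genes.

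Start sites were examined next. A reference peak lay within 1000 bp of at least 1 annotated start site in 9 of the 10 genes, the exception being Marco. Among all protein-coding genes this share was 56.5%. With the most upstream start site alone, 7 of 10 genes had a peak, against 52.1% of protein-coding genes, and Cd36 and Cd163 joined Marco among those without. At the most upstream start of a protein-coding transcript, the best summit score was 2021 for Cd68, 1799 for Scarb2, 1381 for Mertk, 1284 for Cxcl16, 1248 for Scarb1, 1176 for Msr1 and 554 for Stab1. The 11471 protein-coding genes with such a peak had a median of 1443 with quartiles of 1048 and 1786. Cd68 thus scored above 88.6% of them and Scarb2 above 75.1%. Stab1 scored above 4.4%, although its locus held summits that scored far higher.

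**Figure D3:**
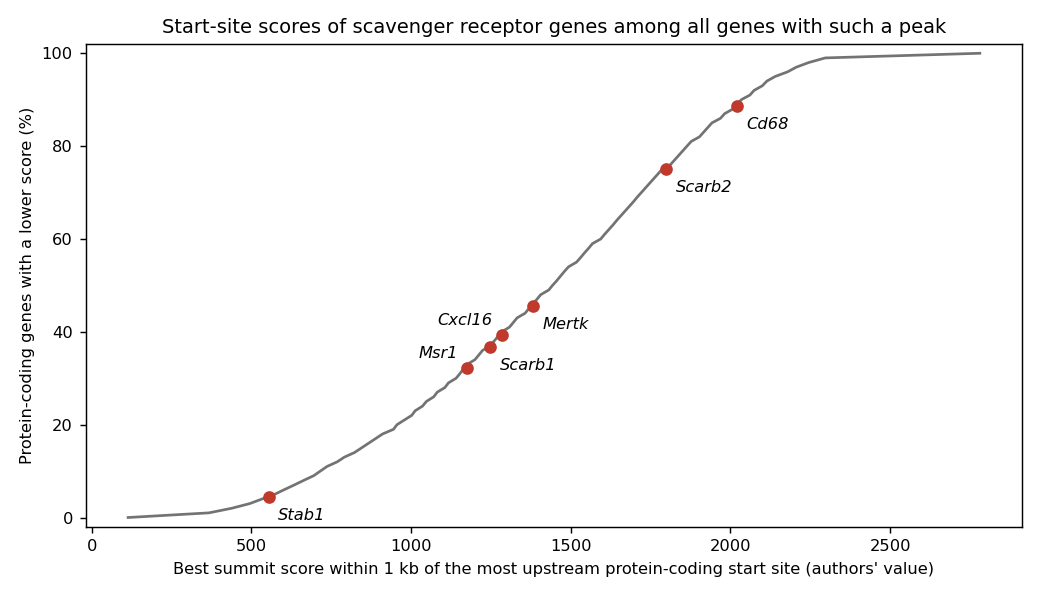
The grey curve gives, for each summit score on the horizontal axis, the percentage of protein-coding genes with a lower score among the 11471 genes with a reference peak at most 1 kb away from their most upstream protein-coding start site. Red dots are the 7 scavenger receptor genes with such a peak, from Stab1 (554) to Cd68 (2021). Marco, Cd36 and Cd163 had no peak there and are not drawn.

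Msr1 and Marco, the class A receptors, differed in their profiles. Msr1 (chr8:39581685-39642673) had 18 summits, of which 11 lay in the gene body. The peak at its start sites (chr8:39642642-39642919) scored 1176, and another summit 823 bp from the nearest start scored 367. This peak covered all of the start sites but 1, which lay 22 bp outside it. The best summit of the locus lay in an intron 47745 bp downstream of the most upstream start, with a score of 1493. A summit 9234 bp upstream scored 1406 and an exonic one, 22682 bp downstream, scored 1094. The widest peak of the locus, of 547 bp, covered an intronic summit with a score of 411. Marco (chr1:120474538-120505024) had 3 summits, all upstream of the gene. The one at 27722 bp scored 900, and those at 26960 and 22702 bp scored 439 each. The former pair lay in a single extended region of 2430 bp, and the widest Marco peak, of 308 bp, was the one at 26960 bp. No summit lay in the 30487 bp of the Marco gene body, and the closest peak began 22635 bp from the start site. All 3 Marco peaks lay outside genes, and only the one at 900 scored above the median of all summits, which was 737.

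Of the class B receptors, Cd36 (chr5:17781690-17888801) had all of its 12 peaks inside its gene body. None of them lay at the most upstream start sites, from which the closest peak was 6626 bp away, nor at those 53084 and 53105 bp downstream. The start sites 39009 and 39072 bp downstream lay under a peak that scored 402, which was above only 1.38% of the best start-site scores of the 12402 protein-coding genes with a start-site peak. The strong summits of Cd36 were intronic. The best one, 8720 bp downstream, scored 1670, and its peak of 474 bp was the widest of the locus. Another 3, at 31327, 34103 and 49004 bp, scored 1531 each, which was above 88.8% of all summits. The one at 49004 bp held PU.1/ETS, MiT/TFE and NRF2/BACH motifs within 100 bp.

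Scarb1 (chr5:125277087-125341094) had peaks at its start with scores of 1248, 812 and 1164, the summits lying at 6, 394 and 772 bp from the nearest annotated start. The best summit over 1000 bp from any start scored 1531, lay outside genes 17347 bp upstream and shared its peak with a summit that scored 1200. In the body of Scarb1, an intronic summit 7876 bp downstream scored 1320. Scarb2 (chr5:92441314-92506833) had its strongest summit, with a score of 1799, at the start of its protein-coding transcript, in the widest peak of the locus (494 bp). A retained-intron transcript of Scarb2 starts 1196 bp further upstream, where the closest peak scored 458. Its other start-site peaks scored 324 and 298. An intronic summit at 7120 bp (score 1345) and a summit in an exon at 65159 bp (score 1153) were the best in the rest of the gene body. Outside genes, the best summit of Scarb2 was 21900 bp upstream and scored 1176, and a peak of 363 bp held 2 summits, which scored 367 and 402.

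Cd68 (chr11:69664213-69666153), the shortest of these genes with 1941 bp, had its start sites under a peak of 546 bp (chr11:69665944-69666489) that scored 2021, above 98.2% of all summits. AP-1 and C/EBP motifs lay within 100 bp of this summit. An intronic summit scored 573. The highest score of the locus, 2232, was at the start of Eif4a1, a translation initiation factor. The widest peak of the locus, of 697 bp with 2 summits, lay at Mpdu1 and Mir1934. The best summit away from start sites (1903) lay inside Tnfsf12 and Tnfsfm13, 26263 bp upstream of Cd68.

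In Stab1 (chr14:31139013-31168641), the start site peak (score 554) was weaker than intronic peaks nearby. The summit 2270 bp downstream scored 1825, in the widest peak of the locus (584 bp). The one 7955 bp downstream scored 2021 and held an AP-1 motif. The edge of the latter peak lay within 1000 bp of the start of a retained-intron transcript, by which it was counted among the 4 start-site peaks of Stab1. A further start-site peak, 28790 bp downstream, scored 823, and the remaining one, 5949 bp downstream, scored 242. Cd163 (chr6:124304656-124330527) had no peak at either start site of its protein-coding transcripts. The closest peak lay 4377 bp from the most upstream start and had an exonic summit with a score of 376. Its start-site call rested on a retained-intron transcript that starts 15831 bp downstream, 650 bp from a peak with a score of 727. The strongest Cd163 summit lay outside genes, 31230 bp upstream of the gene, with a score of 1851, above 96.0% of all summits. It lay in the widest peak of the locus, of 479 bp.

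Mertk (chr2:128698956-128802894) had a pair of summits at its start, 135 and 678 bp upstream, which both scored 1381. A peak with a score of 1071 lay at the start of a processed transcript 72357 bp downstream. The best summit of the locus, at 1594, was intronic and 97744 bp downstream, and it held an NRF2/BACH motif. The widest Mertk peak, of 349 bp, was the one at the start site. At Cxcl16 (chr11:70453983-70459984), the start-site peak (score 1284) was shared with Zmynd15, whose start site also lay within 1000 bp of the summit, so that the start-site signals of the pair cannot be told apart. A further start-site peak of Cxcl16 scored 358, and its summit also lay within 1000 bp of a start of Zmynd15. Cxcl16 had 18 of its 30 summits outside genes, the most of the 10 loci. The best of them were 8102 bp upstream, with a score of 1734, and 29846 bp upstream, with a score of 1696. The highest score of the locus (2061), in its widest peak (655 bp), was at the start of Arrb2, a beta-arrestin gene. A further 3 peaks of this locus, at Arrb2, at Med11 and outside genes, held 2 summits each.

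The base composition of the start sites was then compared. For this, the 300 bases from 250 before to 50 after the most upstream start of a protein-coding transcript were used in all genes. CpG observed over expected is the number of CpG dinucleotides divided by that expected from the C and G content. It was 0.786 for Scarb2, 0.697 for Scarb1, 0.658 for Mertk and 0.517 for Cxcl16, with GC contents of 69.0%, 66.3%, 67.3% and 55.7%. The values for Stab1, Cd36, Cd68 and Cd163 were 0.286, 0.257, 0.248 and 0.186. Msr1 and Marco held 0 CpG dinucleotides. Protein-coding genes with a peak within 1000 bp had a median ratio of 0.76 and those without a median of 0.238. Msr1, Cd68 and Stab1 thus had a start-site peak with a ratio below the lower quartile (0.562) of the genes with a peak, and so did Cxcl16. Cd36, Cd163 and Marco lay below the upper quartile (0.461) of the genes without a peak, as Msr1, Cd68 and Stab1 did too.

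**Figure D4:**
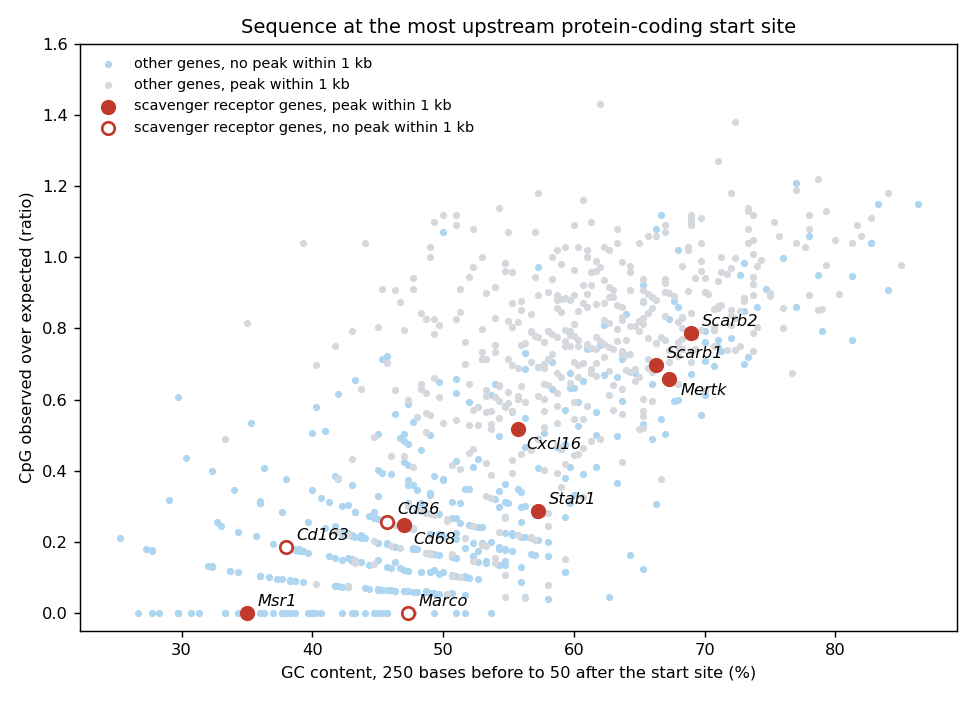
The horizontal axis gives the GC content and the vertical axis the ratio of observed to expected CpG dinucleotides in the 300 bases around the most upstream protein-coding start site. Small dots are every 25th protein-coding gene, coloured by whether a reference peak lay within 1 kb. Large circles are the scavenger receptor genes, filled where a peak lay within 1 kb. Msr1 and Marco share a ratio of 0.0, but only Msr1 had a peak.

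The 100 bp on either side of each summit were searched for motifs on both strands. The letters were GAGGAAGT for PU.1/ETS, TGANTCA for AP-1, TTGCNNAA for C/EBP, TGTGGTT for RUNX, TCANGTGA for MiT/TFE, TGACNNNGC for NRF2/BACH, TGACGTCA for CRE and GGGCGGG for SP/KLF. STAT6 was searched as TTC and GAA with 4 bases between them, IRF as a repeat of GAAA with 2 bases between, and NF-kB, PPAR/RXR DR1, LXR/RXR DR4, CTCF and MEF2 by consensus sequences that allow several bases at some positions. Some motifs overlap, since an AP-1 match that starts with TGAC and is followed by GC also holds the NRF2/BACH letters. At least 1 of the 15 motifs was found at 109 of the 167 summits (65.3%), against 67.7% of all summits. Among summits over 1000 bp from every start, it was found at 70 of 109 (64.2%), against 68.6% of all such summits.

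PU.1, AP-1 and C/EBP factors open and maintain enhancers in macrophages. The PU.1/ETS motif was found at 15 of the 167 summits (8.98%) and at 9.08% of all summits. AP-1 was found at 31 (18.6%), against 19.4% of all, and C/EBP at 23 (13.8%), against 11.4%. RUNX was found at 9 summits (5.39%; all summits 7.91%). AP-1 and C/EBP occurred together at 6 summits (3.59%; all summits 2.23%), among them the start of Cd68, the best Cd36 summit and the Cxcl16 summit 8102 bp upstream.

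Among the factors activated by the stimuli, NF-kB, which acts downstream of TLR4, had its motif at 7 summits (4.19%; all summits 5.55%), and STAT6, which acts downstream of the IL-4 receptor, at 12 (7.19%; all summits 6.81%). The IRF motif was found at 1 summit (0.599%), 17125 bp upstream of Scarb1, against 3.64% of all summits. The CRE motif was also found at 1 summit, against 0.938%, in the locus of Scarb1. Of the motifs of factors for lysosomal, oxidative stress and lipid genes, MiT/TFE was found at 2 summits (1.2%; all summits 3.14%), in Cd36 and Mertk. NRF2/BACH was found at 21 (12.6%; all summits 12.2%), of which 7 were at starts of other genes alone and 10 over 1000 bp from every start. Those 10 were 9.17% of the summits over 1000 bp from every start, against 12.4% of all such summits. PPAR/RXR DR1 was found at 1 summit in the locus of Cxcl16, against 0.379% of all, and LXR/RXR DR4 at 1 summit in Scarb2, against 0.32%. SP/KLF, a motif of CpG-rich promoters, was found at 18 summits (10.8%; all summits 11.1%), of which 13 were at starts of other genes alone, 2 at starts of the receptor genes and 3 over 1000 bp from every start. Those 3 were 2.75% of the summits over 1000 bp from every start, against 3.2% of all such summits. CTCF was found at 4 (2.4%; all summits 5.3%) and MEF2 at 1 (0.599%; all summits 0.865%).

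**Figure D5:**
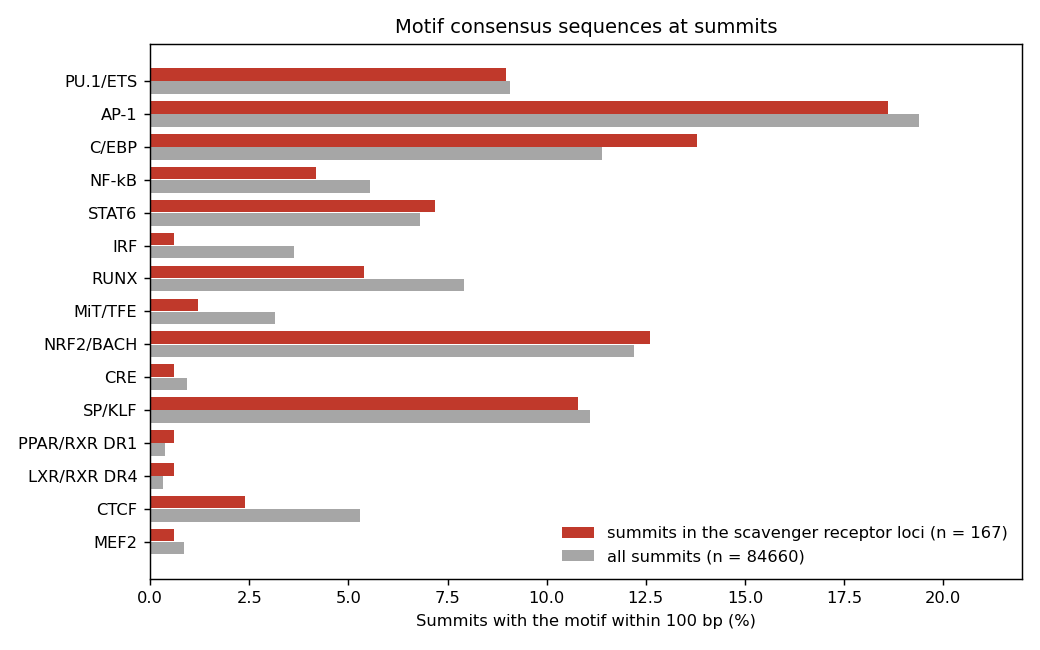
The horizontal axis gives the percentage of summits with each of the 15 motifs within 100 bp, for the 167 summits in the loci of the scavenger receptor genes (red) and all 84660 summits (grey). AP-1 was the most frequent motif in both (18.6% and 19.4%), and the IRF motif was found at 0.599% and 3.64%.

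Over all loci, summit scores had a median of 780 (range 121 to 2232), against 737 for all summits, and 87 of 167 (52.1%) were at or above the latter, against 50.5% of all. The median was 1094 for the 3 summits in exons of the receptor genes, 1014 at starts of other genes, 956 elsewhere inside another gene, 817.5 at starts of the receptor genes, 685 in their introns and 608.5 outside genes. Reference peaks had a median width of 237 bp in the loci and 227 bp in the whole list. Around the summits, the GC content had a median of 49.3% (all summits 50.2%). Of the 10 summits whose surrounding bases were at least 50% repeat sequence (5.99%; all summits 6.15%), 3 each were in the loci of Msr1 and Cxcl16.

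Genes of related function were taken from lists. Among 11 other scavenger receptor genes, 5 had a start-site peak (Olr1, Scarf1, Scarf2, Stab2 and Lrp1), as did 56.5% of all protein-coding genes, whereas Scara3, Scara5, Megf10, Cd5l, Cd163l1 and Ager had none. Lrp1, an endocytic receptor for lipoproteins, had 39 peaks within 50000 bp of its start and Scara5 and Cd163l1 had 0, and the median of the 11 genes was 4, below the 6 of all protein-coding genes. With the most upstream start alone, 3 of the 11 had a peak, against 52.1%, as Scarf2 and Stab2 lost theirs. The remaining TAM receptors Axl and Tyro3 and the bridging ligands Gas6 and Pros1, 4 of 4 against the same 56.5%, had a start-site peak, with scores of 603, 623, 603 and 856, each lower than that of Mertk. Tyro3 had none at its most upstream start, and the median of the 4 genes was 7 peaks within 50000 bp of that start. All 10 genes for lipid handling after uptake had a start-site peak, against the same 56.5% (Abca1, Abcg1, Lipa, Soat1, Plin2, Apoe, Fabp4, Lpl, Nr1h3 and Pparg). Their scores ranged from 603 for Pparg, a nuclear receptor that regulates Cd36, to 1864 for Lipa, the lysosomal acid lipase, and their median number of peaks within 50000 bp of the start was 14.5.

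The cell type was checked with marker genes. All 6 macrophage markers had a start-site peak, among them Adgre1, Itgam, Spi1, Lyz2 and Fcgr1, as did 6 of 12 markers of other cell types, namely Cd3d, Ms4a1, Flt3, Zbtb46, Col1a1 and Pdgfra. Cd3e, Ly6g, Elane and Hbb-bt were among those that had none. For Elane and Hbb-bt this depended on the 1000 bp window, as the closest peak lay 1051 and 1201 bp from the most upstream start. For Cd3e and Ly6g it lay 22844 and 34932 bp away. These 6 of 12 stand beside 56.5% of all protein-coding genes. With the most upstream start alone, 4 of 12 had a peak, against 52.1%, as Cd3d and Pdgfra lost theirs. The median number of peaks within 50000 bp of the start was 17.5 for the macrophage markers and 4.5 for those of other cell types. The part of other cells in the peaks of the scavenger receptor genes was not tested.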

How the data were processed

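ATAC-seq libraries of 18 BMDM samples (9 groups of 2) were processed by the authors. Per the study's methods, adapters were removed with BBDuk, reads were trimmed (Trimmomatic 0.39), mapped to mm10 with ShortStack and filtered (SAMtools 1.9), and peaks with summits were called with MACS2 2.2.6, with no model and no local background and with duplicates kept. Stringent peaks that overlapped between replicates were retained. No Tn5 shift is named, so a summit can be offset from the cut site, and kept duplicates can raise a score.

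The reference peaks and extended regions were deposited as positions. The summit score is that deposited by the authors, with no stated scale. The lists are pooled, so replicates, depth and precision per library could not be assessed, and they hold 0 further columns of values.

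Genes came from GENCODE M21 and sequence from GRCm38.p6. Positions count from 1, and all entries ended inside 21 of 21 chromosomes. Overlap meant at least 1 bp. Counts were made with Python 3.11.15 and NumPy 2.4.6, and the counting steps were tested on simulated data. Text names each of the 10 genes with its start-site peaks, best summit, best summit over 1000 bp from any start, widest peak and peak with most summits, and each listed gene with its call, except for some listed genes, a sequence, and the best summit, widest peak and peak with most summits of Scarb1, which lie at a neighbouring gene and are not reported here. Other summits were named after their scores were seen. The members, gene lists and motifs were chosen with earlier results of these data known. Alternatives were other start-site windows and start sites, other flanks, a score minimum, and other motif windows. Start sites of protein-coding transcripts were added after the data were seen.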

Additional observations from a re-analysis of the deposited data

How the results depend on the processing

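The number of genes with a start-site peak was 8 of 10 with a 500 bp window (54.9% of protein-coding genes), 9 with 2500 bp (59.9%), 7 with the most upstream start alone (52.1%) and 7 with peaks at or above the median score (50.7%). Chosen after seeing the data, start sites of protein-coding transcripts gave 8 (55.3%), and the most upstream of these 7 (52.3%). Marco lacked a peak under each of these settings, and Cd163 under all but the 2500 bp window. Restricting the loci to gene bodies left 67 of 159 reference peaks, 49 of 111 extended regions and 63 of 167 summits. A score at or above the median of all summits left 81 peaks and 87 summits. At least 1 motif was found at 70 of the 109 summits over 1000 bp from every start (64.2%, against 68.6% of all such summits). The order of the shares turned with the window for some motifs, among them RUNX, whose share was 5.39% (all summits 7.91%) within 100 bp and 12.6% (12.0%) within 200 bp. At summits over 1000 bp from every start it also turned for some motifs. Among them were PU.1/ETS (11.9%, against 10.7% of all such summits) and NRF2/BACH (9.17%, against 12.4%). The IRF motif was found at 4 summits within 200 bp (2.4%, against 6.51% of all). The 6-letter core GGAAGT was found at 67 summits (40.1%; all summits 35.4%). No paired analysis was possible because the lists carry no replicate numbers. Pooling limits every value to presence in 1 catalog, without an error.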
